A study of Mus musculus with 6 samples.

Results

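The gene expression of the mouse spinal cord at day 5 post-injury was set against that of the sham sciatic nerve, using 2 of the 6 arrays of the series. The cord array held the ipsilateral spinal cord of adult female C57Bl6 mice, collected 5 days after injury of the sciatic nerve. The nerve array held uninjured sciatic nerve of the same strain and sex, named by its label as the normal right nerve and in the methods as sham-operated, with the nerve exposed and left untouched. Each array was hybridized with 1 pool of RNA from 6 animals. The other 4 arrays (nerve at day 1 and at day 5 post-transection, and dorsal root ganglia, or DRG, uninjured and on the injured side 5 days on) are used below only where the values of the same genes bear on this comparison. An array of uninjured cord was not analysed here, so tissue and injury cannot be told apart, and the cord level that was dissected is not given in the sources used here. A comparison was made for each probe that carried 1 gene symbol and had a detection p-value under 0.05 in at least 1 of the 2 arrays. This took in 14286 probes of 25697 on the array, standing for 10449 genes of 16593.

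The spinal cord holds the cell bodies of motor neurons and interneurons together with astrocytes, microglia and oligodendrocytes, which wrap central axons in myelin. The sciatic nerve holds axons whose cell bodies lie in the cord and in the DRG, Schwann cells that make peripheral myelin, and the fibroblasts, perineurial cells, vessels and fat of its sheaths. An axon in the nerve carries few messenger RNAs relative to its cell body. The 2 tissues are thus myelinated by different cells, and their myelins share many proteins while others belong to one of them.

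The Illumina arrays report for each probe the mean intensity of its beads. Signals were scaled to a common median, and signals of undetected probes under the floor, the lowest detected signal of an array (119 in the cord and 124 in the nerve), were set to it. The cord array detected 53.4% of all probes with a median of 39 beads a probe, and the nerve array detected 50.9% with a median of 40 beads. With 1 array a side there is no spread between samples and no test, and the 95% intervals given here cover the spread of beads within the 2 arrays, not animals. Where only the brighter array detected a gene, its fold is given as a lower bound. Where both arrays detected it but the dimmer signal lay near the floor, the fold depends on background, which was not subtracted. The bead interval does not cover that dependence. The detection limit itself left 153 genes just inside (a lower detection p within 0.01 under 0.05), with median signals of 113 in the cord and 124 in the nerve, and 225 genes just outside (within 0.01 above it), with medians of 116 and 122. In pooled tissue, fewer cells of a type and less RNA per cell cannot be told apart.

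The marker genes of the labelled tissues were read first. Of 5 neuronal markers 3 were detected in the cord and 1 in the nerve, with Snap25 and Nefl detected in neither. Non-detection is that of a probe and does not show that a gene is silent. All 5 oligodendrocyte markers were detected in the cord, against 1 in the nerve (Mobp), and their summed signal was 23899 in the cord and 556 in the nerve. All 5 astrocyte markers were detected in the cord, against 2 in the nerve (Gja1 and Aldh1l1). The 4 Schwann cell markers measured were detected in both arrays, at a summed signal of 1116 in the cord and 25447 in the nerve, and the 5 fibroblast markers summed to 4784 in the cord and 73615 in the nerve. Scn10a, Trpv1 and Mrgprd, which mark sensory neurons of the DRG, were detected in neither array, and Avil was detected in the nerve alone at a signal of 127, close to the floor. The 4 microglia markers measured were detected in both arrays, at a summed signal of 1215 in the cord and 841 in the nerve, and 2 of them were at least 2-fold higher in the cord. The 2 ependymal markers measured, of a cell type of the central canal, were detected in both arrays and summed to 578 in the cord and 7802 in the nerve. This difference came from Rarres2, with a log2 difference of -4.13, which went against the tissue labels. The other marker, Foxj1, was within 2-fold (-0.16).

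**Figure D1:**
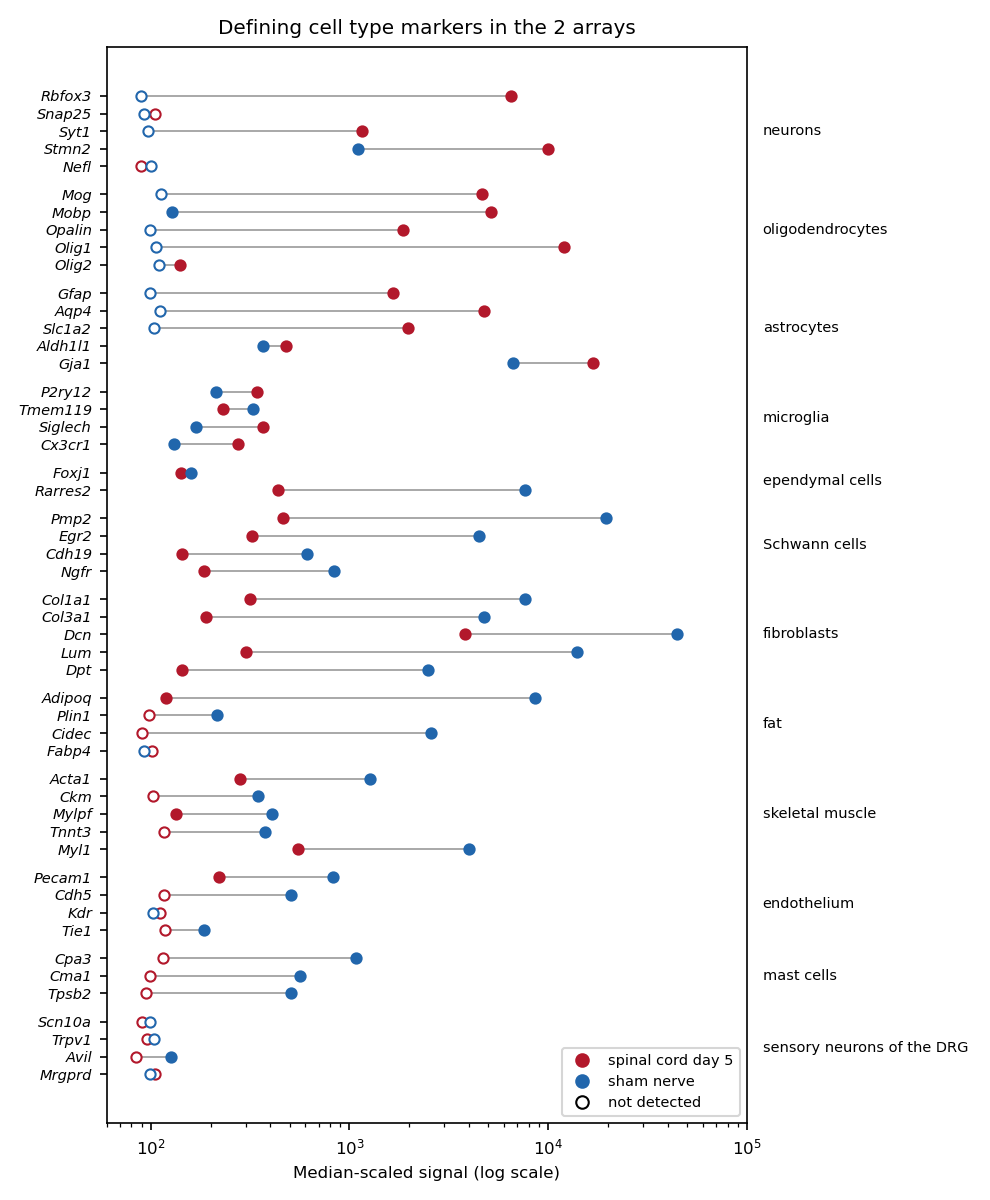
Median-scaled signal (log axis) of each defining marker in the spinal cord at day 5 (red) and in the sham nerve (blue), with open circles where the array did not detect the gene. Oligodendrocyte markers other than Olig2 lie to the right in the cord, at 4642 for Mog and 12080 for Olig1. The log2 difference of Olig2, which the nerve did not detect, is a lower bound of 0.18. Schwann cell and fibroblast markers lie to the right in the nerve.

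Of the 10449 genes, 8253 were detected in both arrays, 1286 in the cord only and 910 in the nerve only, and 6144 further genes were detected in neither. A 2-fold difference separated 1255 genes that were higher in the cord (12%) and 1314 that were lower (12.6%), while 7880 (75.4%) were within 2-fold. A 10-fold difference separated 199 genes higher in the cord (1.90%) and 111 lower (1.06%). The folds reached at least 50 for 20 genes that were higher and for 7 that were lower. The median log2 difference over all 10449 genes was -0.05. Across all 16593 genes measured, detected or not, the log2 signals of the 2 arrays had a Pearson correlation of 0.84. Across the genes detected in both arrays it was 0.76. Both values describe genes within 1 pair of arrays and have no replicates behind them.

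**Figure D2:**
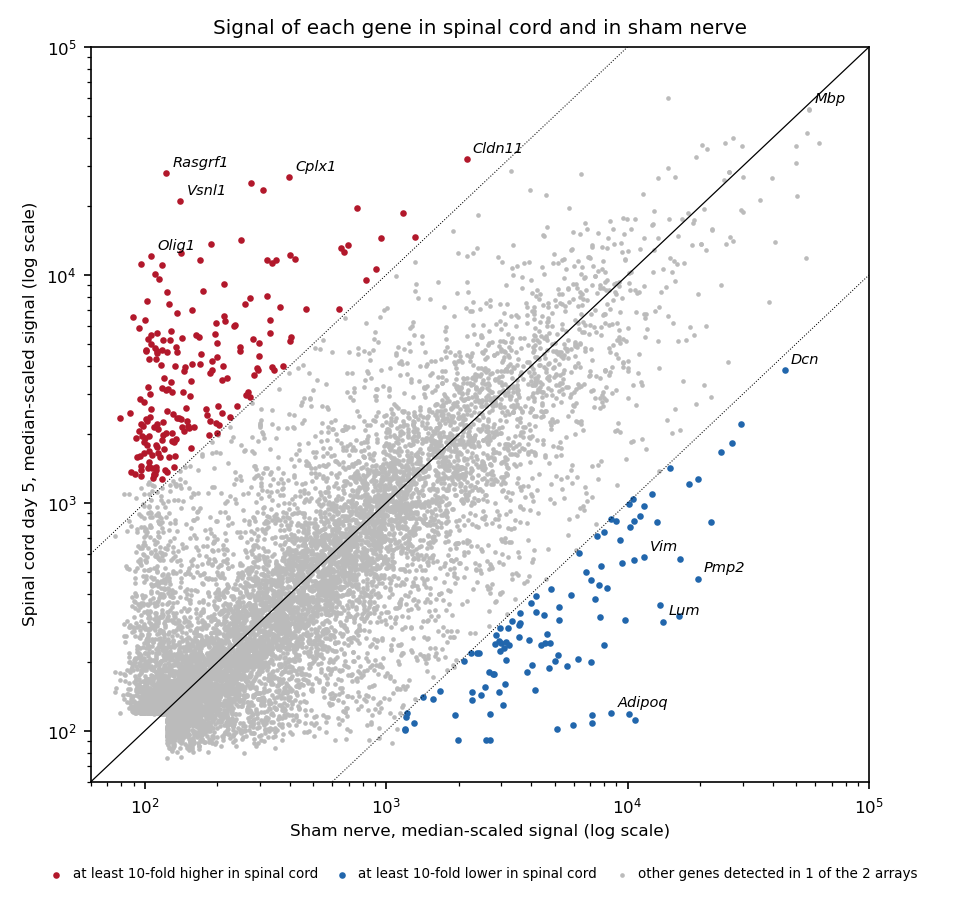
Each point is 1 of 10449 genes, with its median-scaled signal in the spinal cord at day 5 on the vertical log axis and in the sham nerve on the horizontal log axis. The solid line marks equal signals and the dotted lines 10-fold differences. 199 genes are at least 10-fold higher in the cord (red) and 111 at least 10-fold lower (blue), after signals under the detection floor were set to it.

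The highest folds in the cord were led by genes of neurons. Vsnl1, a neuronal calcium sensor, had a signal of 21078 in the cord and 140 in the nerve, near the floor, a 150-fold difference (131 to 172). Atp1b1, a subunit of the sodium pump, gave 25337 and 275 (92.0-fold), and Cplx1, a complexin that clamps synaptic vesicle fusion, gave 26943 and 395 (68.2-fold). Rasgrf1, an exchange factor that activates Ras, had a signal of 27980 in the cord and was not detected in the nerve, a difference of at least 226-fold. Rbfox1, a splicing factor of neurons, was also among the 20 highest folds (7434 in the cord and 126 in the nerve, close to the floor). So was Sh3gl2, an endophilin of synaptic vesicle retrieval (14311 and 250).

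Of 23 pan-neuronal genes measured, 20 were at least 2-fold higher in the cord, 0 lower, and 3 were detected in neither array. The median log2 difference of the 20 was 3.78, against -0.05 over all genes. Eno2, the neuronal enolase, gave 13080 in the cord and 654 in the nerve, and Stmn2, a tubulin-binding growth protein, gave 9944 and 1103. Thy1, a surface glycoprotein of neurons, gave 14630 and 1323. Rbfox3, which encodes the nuclear antigen NeuN, gave 6534 in the cord and was not detected in the nerve (at least 52.7-fold). The genes of synaptic vesicles followed, with 14 of 18 measured higher, 0 lower and a median log2 difference of 3.49. Syp, the vesicle protein synaptophysin, gave 14518 and 951, and Syn1, synapsin, gave 8090 and 320. Syt11 had the smallest fold of the 5 brightest, 27695 in the cord and 6425 in the nerve (4.31-fold).

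The transmitter systems of the cord were seen mainly as genes that the nerve did not detect. Slc17a6, the vesicular glutamate transporter VGLUT2, gave 12550 in the cord and 142 in the nerve, near the floor (88.3-fold, 75.3 to 104). Slc32a1, which loads GABA and glycine into vesicles, gave 11208 in the cord and was not detected in the nerve (at least 90.4-fold), and Gad1, which makes GABA, gave 4664 against no detection (at least 37.6-fold). Of 14 genes of inhibitory neurons 5 were higher and 0 lower, and of 19 genes of excitatory neurons and neuropeptides 11 were higher and 0 lower. Glrb, the beta subunit of the glycine receptor, gave 480 in the cord and Glra1, an alpha subunit, gave 298, both undetected in the nerve. The neuropeptide genes Sst (6330), Pdyn (1920) and Nmu (1509) were likewise detected in the cord and not in the nerve. Of 11 genes of motor neurons and cholinergic transmission 6 were higher and 0 lower. Chodl, a marker of fast motor neurons, gave 880 in the cord against no detection in the nerve. Slc18a3, the vesicular acetylcholine transporter, gave 601 against no detection, and Chat, which makes acetylcholine, gave 491 in the cord and 135 in the nerve (3.63-fold). No member of these lists, or of the pan-neuronal and synaptic vesicle lists, was at least 2-fold lower in the cord.

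Channel genes were divided. Of 8 sodium channel genes 4 were higher in the cord, led by the beta subunit Scn4b at 2938 in the cord and 154 in the nerve (19.0-fold), and Scn1a at 544 against no detection. Scn7a, a sodium channel of glia and nerve, went the other way at 123 in the cord and 488 in the nerve (3.96-fold). Of 22 potassium channel genes 7 were higher, among them the beta subunit Kcnab2 at 11331 and 338 (33.5-fold), and 1 was lower, the BK channel subunit Kcnmb4 at 376 and 1288 (3.42-fold). The channel lists thus held both directions.

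Hox genes set position along the body axis. Of 38 measured, 14 were at least 2-fold higher, 0 were lower, 9 were within 2-fold and 15 were detected in neither array. Hoxd10, a gene of lumbar segments, gave 4490 in the cord and 171 in the nerve (26.3-fold, 22.0 to 31.5). Hoxb5 gave 2616 and 148, Hoxb7 gave 3170 and 361, Hoxa7 gave 2136 and 389, and Hoxa5 gave 1926 and 312. The members that were higher came from all 4 clusters.

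Astrocyte genes were higher in 14 of 21 cases and lower in 0, with a median log2 difference of 2.75. Aldoc, the aldolase isoform of astrocytes, gave 23686 in the cord and 309 in the nerve (76.6-fold, 64.7 to 90.7). Aqp4, the water channel of astrocyte endfeet, gave 4777 against no detection, and Gfap, their intermediate filament, gave 1654 against no detection (at least 13.3-fold). Gja1, connexin 43, was bright in both arrays, at 16863 in the cord and 6663 in the nerve (2.53-fold). Genes of the central matrix moved the same way, with 6 of 12 higher and 0 lower. Hapln4, a link protein of nodal and perineuronal matrix, gave 2069 and Bcan, brevican, gave 1802, both against no detection in the nerve. Several lists share members, so their counts are not independent. Astrocyte and central matrix lists share Bcan, and oligodendrocyte and central matrix lists share Hapln2. Pan-neuronal and synaptic vesicle lists share Syt1, Syn1, Syn2, Cplx1 and Snap25, and other lists overlap too.

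Of 20 genes of oligodendrocytes and central myelin 15 were higher, with a median log2 difference of 3.45. Olig1, a transcription factor of the lineage, gave 12080 in the cord against no detection (at least 97.5-fold). Olig2, another marker of the lineage, was detected in the cord only, with a log2 difference of 0.18. This is a lower bound from a cord signal near the floor, so it does not show similar levels in the 2 tissues. Mobp, a protein of central myelin, gave 5177 in the cord and 128 in the nerve, close to the floor (40.5-fold, 35.1 to 46.8). Mog, a protein of the outer myelin surface, gave 4642 against no detection. Cldn11, the claudin of central myelin tight junctions, gave 32342 and 2156 (15.0-fold). Trf, transferrin, gave 13580 and 3359, and Bcas1 gave 29549 and 14723, a 2.01-fold difference whose interval (1.73 to 2.33) reaches under 2. Sirt2, a deacetylase that is abundant in myelin, was the 1 member lower in the cord, at 1619 and 3474 (2.15-fold).

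The Mobp promoter is shown because this gene had the highest fold among the central myelin genes that both arrays detected. SOX factors, some of which take part in the control of myelin genes, bind sites with the core ACAAAG. The window of 300 bases, from 250 before to 50 after the RefSeq start, lies on the plus strand at chr9:120149492-120149791 (GRCm38.p6), and capitals mark each match to ACAAAG on either strand.
Mobp: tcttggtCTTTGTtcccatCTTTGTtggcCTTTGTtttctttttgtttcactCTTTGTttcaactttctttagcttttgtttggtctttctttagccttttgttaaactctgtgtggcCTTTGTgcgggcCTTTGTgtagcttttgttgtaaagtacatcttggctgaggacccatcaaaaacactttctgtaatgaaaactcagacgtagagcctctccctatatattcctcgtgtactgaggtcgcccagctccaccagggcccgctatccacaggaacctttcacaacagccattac
All 6 matches were to the reverse complement CTTTGT, between 243 and 120 bases before the start. At least 1 match on either strand was present in 18.7% of the 27025 promoters of the table, so a match is not particular to Mobp.

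The list median of microglia genes was nearer to 0 than those of astrocytes and oligodendrocytes. Of 13 measured, all were detected in both arrays, 4 were higher, 1 was lower, and the median log2 difference was 0.69. Selplg gave 616 in the cord and 276 in the nerve (2.23-fold), P2ry13, a nucleotide receptor, gave 580 and 265 (2.19-fold), and Siglech gave 367 and 169 (2.18-fold). With the mean of all probes of a gene, the log2 difference of Siglech was 0.76, under 2-fold. Cx3cr1, the fractalkine receptor, gave 275 and 131 (2.10-fold, 1.73 to 2.55). P2ry12 gave 343 and 213 (1.61-fold), and Tmem119, also used as a microglial marker, gave 230 in the cord and 328 in the nerve, within 2-fold. Olfml3, expressed by microglia and by cells outside the brain, gave 1047 and 4781 (4.57-fold lower). Ependymal genes gave no common direction, with 1 of 11 higher (Rsph1, at 301 against no detection) and 1 lower (Rarres2, which encodes chemerin, at 436 and 7642).

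**Figure D3:**
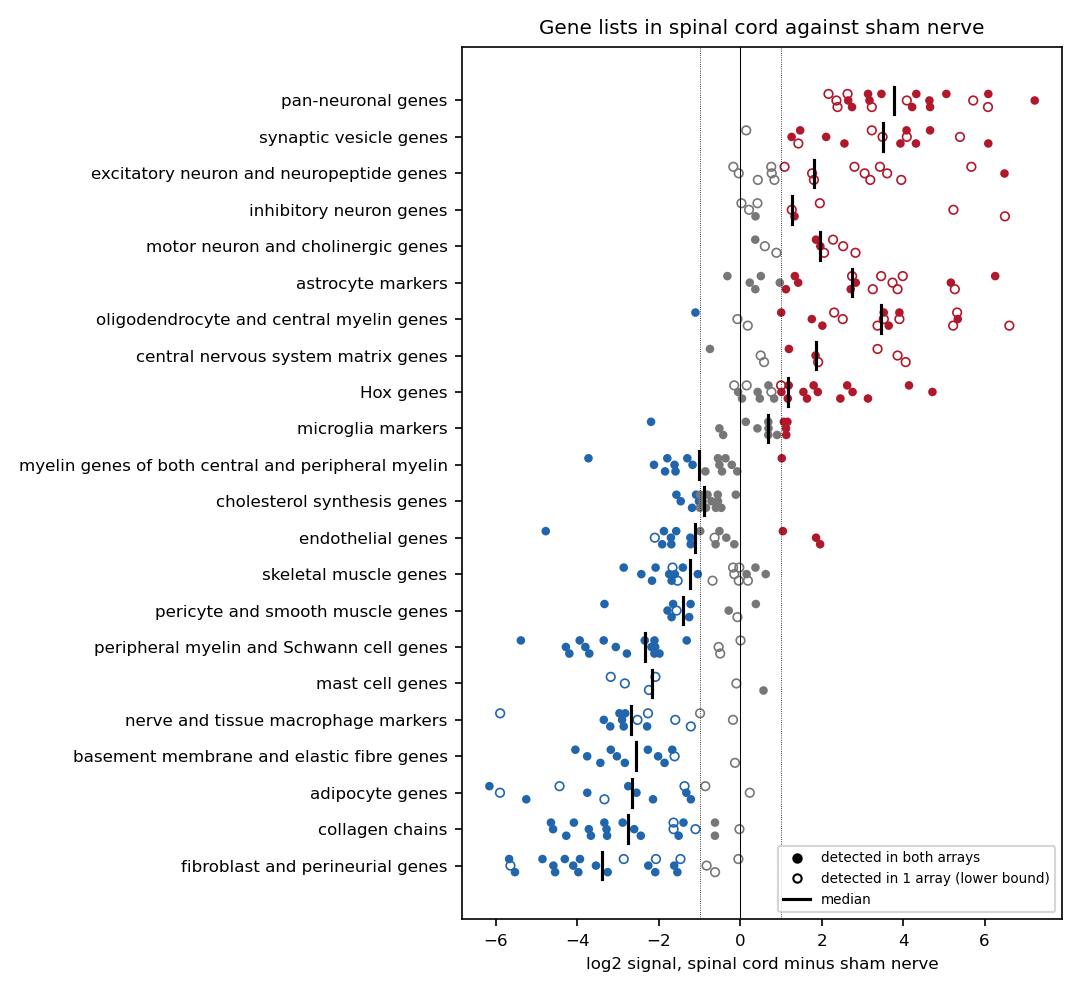
Each point is a gene detected in at least 1 of the 2 arrays, placed by its log2 difference in signal, spinal cord minus sham nerve. Filled points were detected in both arrays and open points in 1 (lower bounds), black bars are list medians, dotted lines mark 2-fold, and red and blue mark at least 2-fold higher and lower. The neuronal lists lie at the right (median 3.78 for pan-neuronal genes) and the fibroblast list at the left (median -3.40).

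Schwann cell genes were for the most part lower in the cord. Of 21 genes of peripheral myelin and Schwann cells, 16 were at least 2-fold lower in the cord and 0 higher, with a median log2 difference of -2.35. Pmp2, the P2 lipid-binding protein of peripheral myelin, gave 465 in the cord and 19501 in the nerve (41.9-fold, 34.0 to 51.7). Dhh, the hedgehog ligand that Schwann cells send to the perineurium, gave 422 and 8218 (19.5-fold). Drp2, a partner of dystroglycan in the Schwann cell membrane, gave 786 and 10273, and Itgb4, the laminin-binding integrin chain of these cells, gave 1734 and 11945. Pmp22, a peripheral myelin protein also made elsewhere, gave 7599 and 38663 (5.09-fold). The transcription factor of peripheral myelination, Egr2, gave 322 in the cord and 4496 in the nerve (14.0-fold).

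The 17 genes shared by both kinds of myelin stood between the glial lists, with 1 higher, 8 lower and a median log2 difference of -1.02. Mbp, chosen after its values were seen, gave 53358 in the cord and 56185 in the nerve, a 1.05-fold difference whose interval (0.923 to 1.20 as nerve over cord) spans equality. Mag, the adhesion protein at the axon face of myelin, was the 1 that was higher, at 17174 and 8472 (2.03-fold). Cd9, a tetraspanin, gave 2228 and 29539 (13.3-fold lower). Fa2h and Ugt8a, which make the galactolipids of myelin, gave 5900 and 18077 for Fa2h, and 5433 and 18820 for Ugt8a. Genes of lipid synthesis were lower or within 2-fold. Of 16 cholesterol synthesis genes 5 were lower, 0 higher and 11 within 2-fold, with a median of -0.88, and Hmgcs1, at the entry of the pathway, gave 22140 in the cord and 50330 in the nerve (2.27-fold). Of 17 genes of fatty acid and myelin lipid synthesis 7 were lower and 0 higher, among them Cers2, a ceramide synthase, at 3928 and 13441. The list medians of cholesterol and lipid genes lay within 2-fold, and most of their members did too.

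Fibroblast and perineurial genes had the lowest list median, at -3.40, with 19 of 22 lower and 0 higher. Igfbp6 gave 318 in the cord and 16270 in the nerve (51.2-fold, 41.4 to 63.2). Lum, the collagen-binding proteoglycan lumican, gave 302 and 13996 (46.3-fold), and Dcn, decorin, gave 3832 and 44721 (11.7-fold). Of 23 collagen chains 17 were lower and 0 higher. The fibrillar chain gene Col1a1 gave 317 and 7673 (24.2-fold), Col3a1 gave 189 and 4751 (25.1-fold), and the basement membrane chain gene Col4a1 gave 836 and 10631 (12.7-fold). Of 14 further genes of basement membranes and elastic fibres 11 were lower and 0 higher, among them Hspg2, perlecan, at 499 and 6758. Lox, which crosslinks collagen, gave 201 and 7032 (34.9-fold), and Tnxb, tenascin-X, gave 193 and 5605.

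The matrix metalloproteinases (MMPs), which cut matrix proteins, and their tissue inhibitors (TIMPs) did not share a direction. Of 19 measured, 7 were lower, 2 were higher, 6 were within 2-fold and 4 were detected in neither. Mmp2, gelatinase A, gave 306 in the cord and 9810 in the nerve (32.1-fold, 26.9 to 38.3), and Mmp14, which activates it, gave 516 and 1836 (3.56-fold). Mmp3 gave no detection in the cord and 935 in the nerve (at least 7.85-fold). Mmp9, gelatinase B, gave 318 in the cord and 247 in the nerve, within 2-fold (1.29-fold, 1.09 to 1.53). Timp1 gave 190 and 381 (2.01-fold, 1.73 to 2.34), and its log2 difference was under 2-fold with no scaling (-0.98) and with the mean of all probes (-0.88). Timp2 gave 8262 and 19609, and Timp3 gave 2884 and 10001. Timp4 gave 1168 in the cord and 153 in the nerve (7.61-fold higher), and Mmp24, a membrane-bound MMP of neurons, gave 440 against no detection. The inhibitors thus ran both ways, with Timp4 higher, Timp2 and Timp3 lower, and Timp1 at the threshold.

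Among genes detected in both arrays, a gene of fat gave the highest fold in the lower direction. Adipoq, the fat cell hormone adiponectin, gave 120 in the cord, close to the floor, and 8573 in the nerve (71.6-fold, 62.5 to 82.0). Of 18 adipocyte genes 12 were lower and 0 higher. Lpl, lipoprotein lipase, gave 356 and 13601 (38.2-fold). Car3, a carbonic anhydrase of fat and muscle, was not detected in the cord and gave 7126 in the nerve (at least 59.8-fold), and Cidec, a lipid droplet protein, was not detected in the cord and gave 2585 in the nerve (at least 21.7-fold). Cyp2e1, a cytochrome P450 best known from liver and also made by fat, was not detected in the cord and gave 10720 in the nerve, the highest lower bound in this direction (at least 90.0-fold). Mup2 and Mup6, of the major urinary proteins, gave bounds of at least 85.0-fold and at least 42.8-fold. The Mup genes are near-identical copies, so which of them gave the signal is uncertain.

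The Cyp2e1 promoter is shown for that bound, with matches to the TATA box core TATAAA in capitals. The window lies on the plus strand at chr7:140763569-140763868 (GRCm38.p6).
Cyp2e1: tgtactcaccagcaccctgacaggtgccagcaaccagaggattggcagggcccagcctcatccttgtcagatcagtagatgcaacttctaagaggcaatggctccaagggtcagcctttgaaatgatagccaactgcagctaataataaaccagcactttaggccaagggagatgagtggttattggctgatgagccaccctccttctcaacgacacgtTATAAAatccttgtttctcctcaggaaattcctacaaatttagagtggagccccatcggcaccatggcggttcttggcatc
The 1 match began 31 bases before the start, on the strand of the gene. Of all 27025 promoters, 14.2% held TATAAA on either strand.

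Skeletal muscle genes were lower in 11 of 21 cases and higher in 0, at moderate folds. Myl1, a fast myosin light chain, gave 551 in the cord and 4009 in the nerve (7.28-fold), and Acta1, skeletal actin, gave 282 and 1269 (4.50-fold). Of 11 genes of pericytes and smooth muscle 7 were lower and 0 higher, with Acta2, smooth muscle actin, at 849 and 8571. The cord detected 3 of the 5 muscle markers and the nerve all 5, at summed signals of 1188 and 6411. The cord detected 1 of the 4 fat markers measured and the nerve 3, at summed signals of 410 and 11467. The part of fat and muscle RNA in the other lower genes was not tested.

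Vessel genes ran both ways. Of 20 endothelial genes 9 were lower and 3 higher. Aqp1, the water channel of peripheral vessels, gave 151 and 4142 (27.4-fold lower), Vwf, von Willebrand factor, gave 647 and 2374, and Slc2a1, the glucose transporter GLUT1 of barrier vessels and perineurium, gave 3703 and 11022. The 3 that were higher in the cord were Slco1c1, a thyroid hormone transporter of brain vessels, at 861 and 221 (3.89-fold), Spock2, a proteoglycan also made by neurons, at 929 and 256, and Flt1, a receptor for vascular endothelial growth factor, at 1440 and 698 (2.06-fold, 1.75 to 2.43).

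Genes of immune cells other than microglia were for the most part lower in the cord. Of 14 genes of nerve and tissue macrophages 12 were lower in the cord and 0 higher. Retnla, a product of alternatively activated macrophages, was not detected in the cord, against 7100 in the nerve (at least 59.6-fold). Lyz2, lysozyme, gave 726 in the cord and 5678 in the nerve, and Mrc1, the mannose receptor, gave 210 and 1488. Of 8 mast cell genes 4 were lower, all of them proteases that the cord did not detect, against nerve signals of 1081 for Cpa3, 850 for Mcpt4, 564 for Cma1 and 505 for Tpsb2. Of 9 blood cell genes 2 were higher in the cord, both made by neutrophils, S100a8 at 2175 and 152 (14.3-fold, 12.3 to 16.8) and S100a9 at 823 against no detection. Alas2, which makes heme in red cells, gave 489 in the cord and 1789 in the nerve (3.66-fold lower). Within 2-fold were Ngp (log2 difference 0.71) and Camp (0.75), also of neutrophils, and Hba-a1 (-0.40), also of red cells. S100a8 and S100a9 thus went opposite to Alas2, while these other members passed 2-fold in neither direction.

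Claudins seal the space between membranes. Of 17 measured, Cldn10 (7493 in the cord and 261 in the nerve, 28.7-fold) and Cldn11 were higher, Cldn19 (239 and 4382, 18.4-fold) and Cldn1 (130 and 3051, 23.4-fold) were lower, 5 were within 2-fold and 8 were detected in neither. Cldn19 lies in the tight junctions of Schwann cells and Cldn1 in the perineurium, and Cldn10 is made by astrocytes. Of 12 connexins, Gjd2, the channel protein of electrical synapses, was higher at 1090 against no detection (at least 8.79-fold), as was Gja1, and 0 were lower. Of 11 fatty acid and retinoid binding proteins, Fabp3 was higher at 1208 and 134 (9.0-fold) and Pmp2 lower. Fabp5 gave 333 and 173, within 2-fold (1.93-fold, 1.57 to 2.36). These counts are out of all measured members, of which 9 claudins, 7 connexins and 6 binding proteins were detected in either array. Of the 11 ependymal genes 8 were detected, and of the 19 MMPs and TIMPs 15. Among all 10449 detected genes, 1255 were higher and 1314 lower, so changes in both directions were common. Whether the counts of these lists differ from those over all genes was not tested.

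**Figure D4:**
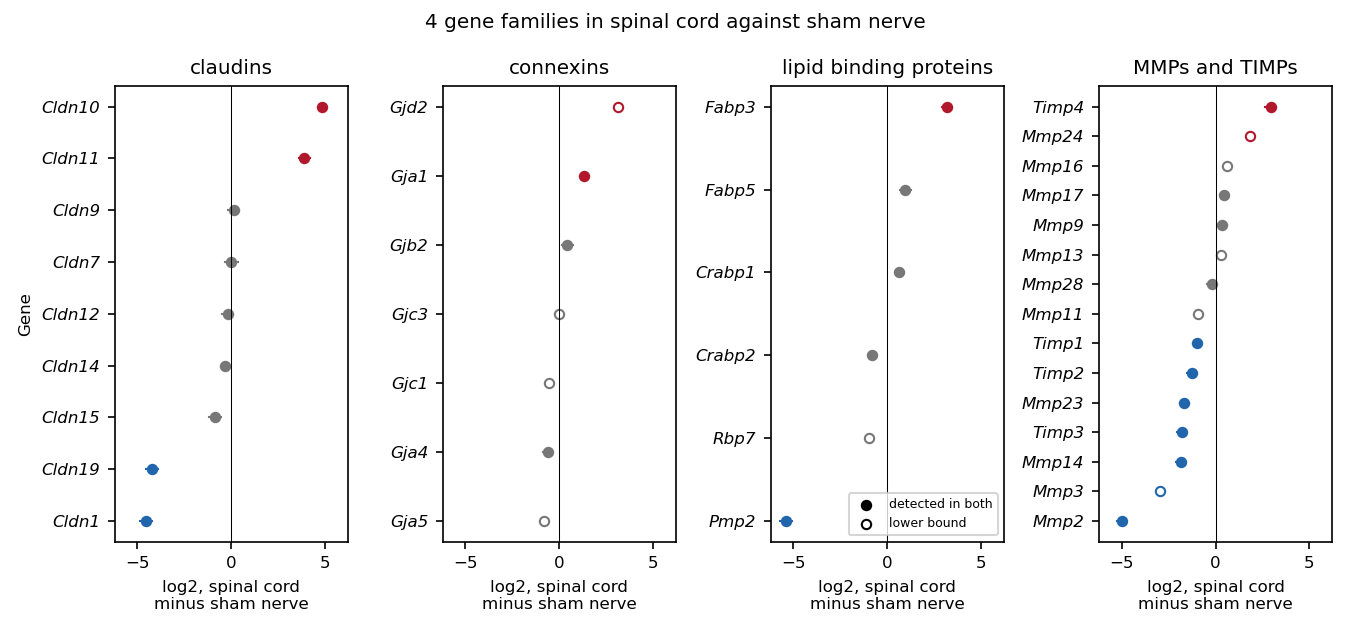
Log2 difference in signal, spinal cord minus sham nerve, of each detected member of 4 families, with horizontal lines for the 95% interval from beads and open circles for lower bounds. Cldn10 and Cldn11 stand at the top and Cldn19 and Cldn1 at the bottom of the claudins, and Mmp2 at the bottom of the MMPs and TIMPs.

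The promoters of Cldn11 and Cldn19 are shown as the pair of myelin claudins with opposite differences. Both windows lie on the plus strand, at chr3:31149670-31149969 for Cldn11 and at chr4:119255191-119255490 for Cldn19 (GRCm38.p6), and capitals mark matches to the GC box GGGCGG on either strand.
Cldn11: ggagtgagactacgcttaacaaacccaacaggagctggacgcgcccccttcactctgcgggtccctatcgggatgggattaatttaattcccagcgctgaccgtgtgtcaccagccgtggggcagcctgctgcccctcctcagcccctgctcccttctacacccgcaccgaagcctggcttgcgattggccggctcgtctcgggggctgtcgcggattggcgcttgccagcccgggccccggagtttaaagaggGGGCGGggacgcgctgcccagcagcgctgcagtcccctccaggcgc
Cldn19: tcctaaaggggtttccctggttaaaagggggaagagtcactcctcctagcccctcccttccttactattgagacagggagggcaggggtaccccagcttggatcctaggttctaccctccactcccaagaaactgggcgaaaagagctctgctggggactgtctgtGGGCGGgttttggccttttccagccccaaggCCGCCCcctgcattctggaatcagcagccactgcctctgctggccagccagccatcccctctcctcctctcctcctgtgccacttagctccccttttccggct
Cldn11 held 1 match, 5 bases into the transcript, and Cldn19 held 2, 84 and 53 bases before the start. GGGCGG on either strand was present in 35.9% of all promoters, so the motif is common to many genes.

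Intermediate filament genes ran both ways, with 6 of 17 higher in the cord and 5 lower. The neurofilament genes Nefm (8398 against no detection, at least 67.8-fold) and Nefh (5434 and 163, 33.4-fold), Ina, Prph, Synm and Gfap were higher. Vim, vimentin, gave 579 in the cord and 11692 in the nerve (20.2-fold), and Nes, nestin, gave 243 and 4554 (18.7-fold). Lmna, Krt19 and Des were the other members that were lower.

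Genes known to be induced in injured neurons were mixed. The cord array came from animals with an injured nerve. The label of the nerve array, normal right nerve, does not say whether its animals had an injury on the other side. Of 16 measured, 7 were higher and 2 lower. Gap43, a growth cone protein, gave 2594 in the cord and 179 in the nerve (14.5-fold), Gal, the peptide galanin, gave 1445 and 147 (9.84-fold), and Npy gave 1133 against no detection. Sham DRG gave 2256 for Gap43, 1290 for Gal and 246 for Npy. Whether tissue or injury set the cord signals of these genes was not tested. Tubb6, a tubulin, gave 439 and 1184 (2.70-fold lower) and Anxa1, annexin A1, was not detected in the cord against 393 in the nerve. Of 12 reference genes 3 were higher, Hprt at 9026 and 3126, Tfrc at 2596 and 1052, and Gapdh at 26668 and 13325 (2.0-fold, 1.82 to 2.20). B2m was lower at 3436 and 16940, and Eef1a1 was detected in neither array.

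The genes at least 10-fold apart were then followed through the other 4 arrays. The 199 higher genes had a median signal of 3641 in the cord and 135 in the sham nerve, 330 in the nerve at day 1, 129 in the nerve at day 5, 1684 in the day 5 DRG and 2094 in the sham DRG. Of these 199 genes, 91 were at least 2-fold higher in the cord than in sham DRG, 99 were within 2-fold and 9 were at least 2-fold lower. Sult4a1, a sulfotransferase of the nervous system, was one of those below, at 13621 in the cord and 27793 in sham DRG, while Ntsr2, a neurotensin receptor of astrocytes, gave 4843 and 457. The 111 lower genes had a median signal of 250.0 in the cord and 4763 in the sham nerve, 3632 in the nerve at day 1, 3183 at day 5, 860 in the day 5 DRG and 981 in the sham DRG. Of these 111, 104 were at least 2-fold higher in sham nerve than in sham DRG. Each set was chosen for a high signal in the array that is here set against sham DRG. These counts thus follow in part from the choice, and the same share over all genes was not computed. Of the 199 higher genes, 199 were detected in the day 1 nerve and in sham DRG, 188 in the day 5 DRG, 120 in the day 5 nerve and 116 in the sham nerve. A low signal in the sham nerve was part of how they were chosen. Over all 16593 genes, detection was 9727 in the day 1 nerve, 9678 in sham DRG, 9556 in the day 5 DRG, 9553 in the day 5 nerve and 9163 in the sham nerve. Slc32a1, Gad1 and Mog were detected in the day 1 nerve and in sham DRG but not in the day 5 DRG, and the cause was not tested.

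**Figure D5:**
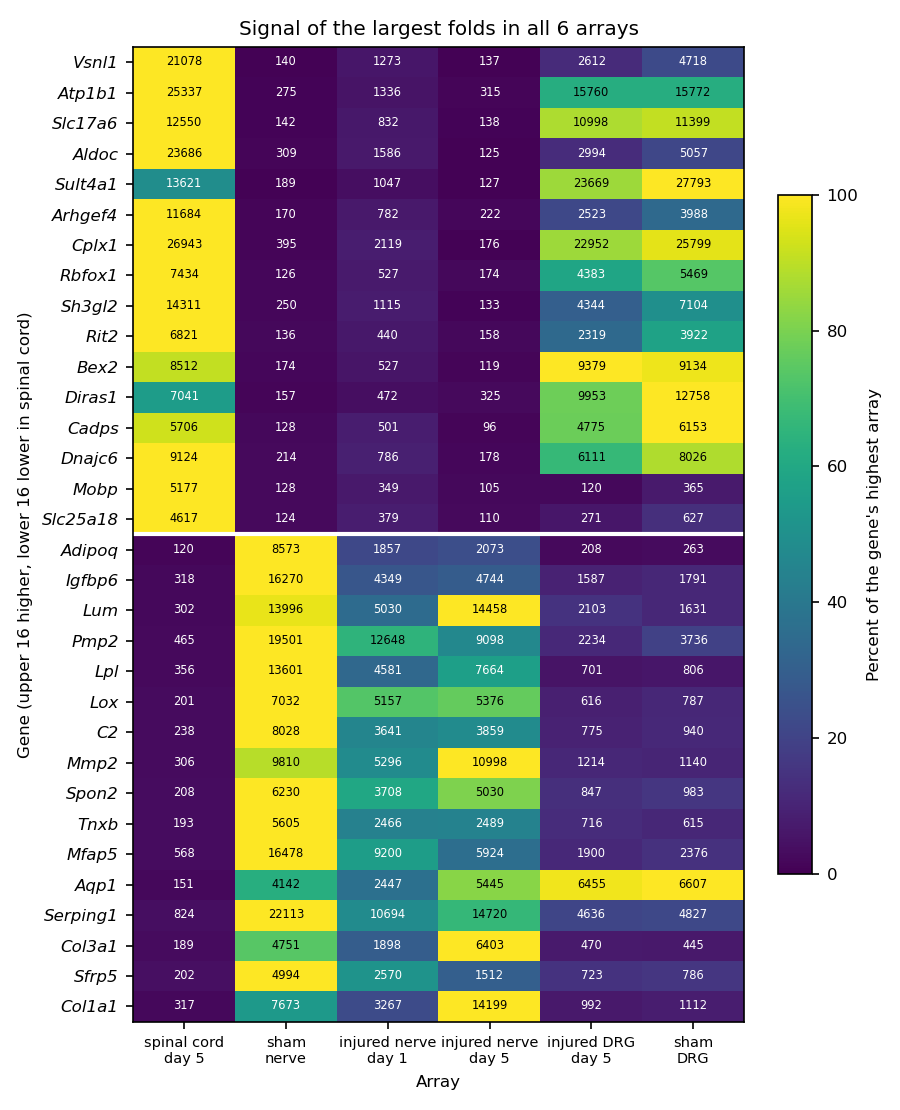
Rows are the 16 genes with the highest folds (upper block) and the 16 with the lowest (lower block) among genes detected in both arrays, and columns are the 6 arrays. Cell text is the median-scaled signal and colour is the percent of the highest array of the row, from 0 to 100. Vsnl1 gives 21078 in the cord, 140 in sham nerve and 4718 in sham DRG, and Adipoq gives 120 in the cord and 8573 in sham nerve.

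Most genes rest on 1 probe, and the genes with more than 1 allowed a second reading. Of the 374 genes that were at least 2-fold higher and had another detected probe, 203 had another probe past 2-fold in the same direction and 2 had one in the opposite direction. Of the 419 genes that were lower, 235 had another past 2-fold the same way and 1 the opposite way. The 3 genes with opposite probes were Klc1, Kif1b and Syngr1. Klc1, a light chain of the kinesin motor, gave 13477 in the cord and 695 in the nerve with its brightest probe (19.4-fold higher), and 1278 and 4217 with another. Kif1b, a kinesin of axonal transport, gave 7633 and 2295 with its brightest probe (3.33-fold higher) and 373 and 884 with another. Syngr1, a synaptic vesicle protein, had 2 probes annotated to 1 RefSeq transcript that were lower in the cord, at 353 and 921 with the brighter, and 2 annotated to a second transcript that were higher, at 780.0 and 150 with the brighter. For these 3 genes the direction is that of a probe and not of the gene.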

How the data were processed

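RNA from 6 pools of 6 mice was hybridized to Illumina MouseRef-8 arrays. The authors deposited for each probe a mean bead intensity without scaling, with the bead number, the standard error and, against negative controls, a detection p-value. The deposited p-value states detection only. A second deposited table of processed intensity values shares its quantiles across arrays, whereas the methods describe normalization to the median, and it served as an alternative. The notes name Agilent Feature Extraction 10.5, which is not the usual software for this platform. Here intensities were scaled to a common median (factors 1.05 for cord and 1.07 for nerve) with no background subtraction, so that folds of dim genes are drawn toward 1. Of 25697 probes, 23978 had 1 symbol and 1719 were unnamed, and 4777 of 16593 genes had several probes, of which the brightest over 6 arrays was used. A call needed a 2-fold or 10-fold difference and detection in the brighter array. Intervals combine bead errors (median 6.31% in cord and 6.53% in nerve). Named genes were the 20 largest folds and 10 largest bounds in each direction, the 5 brightest called members per list and those against its majority, defining markers, genes with opposite probes, and all members of 4 families. The members and lists were chosen with earlier results of these data known. Promoters (RefSeq, GRCm38.p6) were found for 8421 of 10449 genes, 156 of the 199 and 77 of the 111. The last 2 shares are under 80%, so a check of promoter content over those sets is void and was not made. Python 3.11.15 and R 4.3.3 with limma 3.58.1 (neqc) were used, and the calls were tested on simulated data.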

Additional observations from a re-analysis of the deposited data

Results flagged for a closer look

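Probes with no gene symbol took no part in the comparison, yet some differed as far as the named genes did. Of 1719 such probes, 888 were detected in at least 1 of the 2 arrays, and 11 of these were at least 10-fold higher in the spinal cord and 8 at least 10-fold lower than in sham nerve (1.24% and 0.90% of the 888). Their genes are not named here.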

How the results depend on the processing

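Under the 7 alternatives that keep 1 value a gene, 0 of the genes past 2-fold were past 2-fold the opposite way. No scaling, the stricter detection p and the limit to genes detected in both arrays could not have turned a call. They keep the same signals or shift all of them alike, so only the other alternatives bear on this count. With neqc (negative controls inferred from detection p-values, offset 16), 389 genes were at least 10-fold higher in the cord and 230 lower, against 199 and 111. With the negative control level subtracted, 478 were at least 10-fold higher and 364 lower, and 2604 were at least 2-fold lower, against 1314. That subtraction moved the median of all genes to -0.24 from -0.05, and the share of higher genes among the 2-fold calls to 39.9% from 48.9%. Over genes detected in both arrays, which leaves out the lower bounds, 116 were at least 10-fold higher. The other counts stayed within 1.5 times, with no scaling, the authors' processed values, a detection p under 0.01, the mean of all probes, and every probe counted singly. Of 34 list medians, computed with no scaling, the processed values, neqc and the stricter detection p, none past 2-fold turned sign, and those that moved by at least 0.5 (log2) were 20 under neqc and 2 at the stricter detection p. Of 130 named genes, computed with no scaling, the processed values, neqc and the mean of all probes, the log2 difference left its 95% bead interval in 106 under neqc, 26 with the processed values and 34 with the mean of all probes. With that mean, the log2 difference of Syngr1 was 0.081 in place of -1.38, a turned sign. No paired analysis was possible because each group has 1 array, and for the same reason no replicate could be left out. Bead numbers limit the precision of bright genes and the floor limits that of dim ones.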

Other observations

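Genes of central cells that neither the sham nerve nor the day 5 nerve array detected gave a signal on the nerve array at day 1 and on the sham DRG array. Slc32a1 gave 11208 in the cord, 556 in the day 1 nerve and 1026 in the sham DRG, and was not detected in the sham nerve, the day 5 nerve or the day 5 DRG. Gad1 gave 4664 in the cord, 387 in the day 1 nerve and 532 in the sham DRG, and was not detected in the other 3 arrays. Mog gave 4642, 273 and 329, in the order cord, day 1 nerve and sham DRG, and was not detected in the other 3 arrays either. Aqp4 gave 4777, 354 and 398, and of the other 3 arrays only the day 5 DRG detected it, at 133. These 4 genes were chosen after their values were seen, and no cause of the signals was tested. All 199 genes at least 10-fold higher in the cord were detected in the day 1 nerve, against 120 in the day 5 nerve. The sham nerve detected 116 of them, but a low signal there was part of how they were chosen. Over all 16593 genes, the day 1 nerve detected 9727, the day 5 nerve 9553 and the sham nerve 9163.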
